A study of Mus musculus with 10 samples.

Results

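Matrix metalloproteinases (MMPs) and their tissue inhibitors (TIMPs) were examined in the livers of mice with acute injury induced by CD95-Ab, an antibody that activates the death receptor Fas. The members were a list of 10 named genes out of the 38922 in the expression tables, namely Mmp2, Mmp3, Mmp10, Mmp12, Mmp13, Mmp14, Mmp19, Timp1, Timp2 and Timp3, and each was found once by its Ensembl identifier. The animals were wild-type males of the inbred mouse strain C57BL/6N, aged 6 weeks. An intraperitoneal injection of either 0.5 µg of CD95-Ab per g body weight or saline was given. Livers were taken 6 h later from 5 mice per group, with 1 RNA-seq library per mouse. The libraries held between 25965699 and 62097636 counts. Levels are given as CPM, the count of a gene per 1000000 counts of the adjusted library total. On that scale, 3 counts corresponded to 0.0556 CPM in saline replicate 5 and to 0.121 CPM in CD95-Ab replicate 4, the lowest and highest of the 10 mice. All 7 hepatocyte markers examined, albumin among them, were abundant in both groups, with a summed level of 99078 to 125302 CPM in saline-injected mice and 42426 to 79015 CPM in mice injected with CD95-Ab.

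MMPs are zinc-dependent endopeptidases that cut collagens, laminins, elastin, proteoglycans and many cell surface and signalling proteins. Most are secreted as inactive zymogens that other proteases must cleave, and TIMPs bind the active enzymes and block their catalytic site. In the liver, these enzymes and inhibitors are made mainly by macrophages, infiltrating leukocytes, endothelial cells and hepatic stellate cells, and they remodel the matrix of the sinusoids during injury and repair. Several MMP genes that respond to inflammatory signals carry an AP-1 site, the binding sequence of Fos and Jun dimers, close to their start.

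Upstream sequences are shown for the genes of the chromosome 9 cluster with an AP-1 match and, for contrast, for Timp1, whose window has no such match. Of the 10 genes, 8 had an upstream window in RefSeq (GRCm38.p6), giving 9 windows of 250 bases, and those of Mmp2 and Mmp19 were not analysed here. The windows below end at the base before the annotated start, run 5′ to 3′ on the plus strand, and carry the AP-1 letters TGANTCA in capitals. They lie at chr9:7272264-7272513 for Mmp13, chr9:7347124-7347373 for the second annotated start of Mmp12, chr9:7445572-7445821 for Mmp3, chr9:7502092-7502341 for Mmp10 and chrX:20869916-20870165 for Timp1.
Mmp13: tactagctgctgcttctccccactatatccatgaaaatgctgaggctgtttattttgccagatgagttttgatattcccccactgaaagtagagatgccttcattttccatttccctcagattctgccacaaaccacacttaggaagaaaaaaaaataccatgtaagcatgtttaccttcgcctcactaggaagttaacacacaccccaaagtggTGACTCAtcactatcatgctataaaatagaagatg
Mmp12: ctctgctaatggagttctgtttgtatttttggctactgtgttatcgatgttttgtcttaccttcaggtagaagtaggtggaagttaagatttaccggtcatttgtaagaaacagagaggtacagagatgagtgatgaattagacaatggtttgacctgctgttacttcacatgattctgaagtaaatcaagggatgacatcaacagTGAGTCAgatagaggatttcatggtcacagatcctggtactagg
Mmp3: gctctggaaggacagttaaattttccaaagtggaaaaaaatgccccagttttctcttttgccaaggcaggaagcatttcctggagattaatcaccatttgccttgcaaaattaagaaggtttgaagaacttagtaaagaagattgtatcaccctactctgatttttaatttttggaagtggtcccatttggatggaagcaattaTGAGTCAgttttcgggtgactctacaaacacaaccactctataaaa
Mmp10: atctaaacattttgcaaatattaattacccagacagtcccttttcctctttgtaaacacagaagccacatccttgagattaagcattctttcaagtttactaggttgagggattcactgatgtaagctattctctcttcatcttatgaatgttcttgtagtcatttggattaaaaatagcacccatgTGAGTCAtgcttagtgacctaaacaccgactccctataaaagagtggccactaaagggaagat
Timp1: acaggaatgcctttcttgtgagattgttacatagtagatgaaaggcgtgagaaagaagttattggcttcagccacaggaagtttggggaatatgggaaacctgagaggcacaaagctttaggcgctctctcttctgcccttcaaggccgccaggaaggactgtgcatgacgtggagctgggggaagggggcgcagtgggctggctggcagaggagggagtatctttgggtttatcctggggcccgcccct
The match began 35 bases before the start of Mmp13, 46 before that of Mmp3, 63 before that of Mmp10 and 44 before the second start of Mmp12, whereas the window of the first Mmp12 start had none. The second start lies inside the gene. These 4 genes were thus the members with a match, and the letters, which read alike on both strands when the middle base is set aside, occurred in 6.75% of 32851 upstream windows of the same length. TATAAA, the TATA box letters, stood 16, 7 and 29 bases before the starts of Mmp13, Mmp3 and Mmp10, and in 12.4% of all windows on either strand. AGGAAG, a core that ETS factors bind, was found in 6 of the 8 genes and in 29.5% of all windows on either strand. The member counts are by gene, with Mmp12 counted if either of its windows matched, whereas the shares are by window. None of the matches overlapped another of these motifs. The matches describe letters only, and binding was not measured. Other forms of these sites, and sites outside the windows, were not searched for.

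Compared to saline-injected controls, the livers of mice injected with CD95-Ab had higher RNA levels of the macrophage elastase Mmp12, the collagenase Mmp13, the membrane-type enzyme Mmp14 and all 3 inhibitors. In contrast, no decrease of Mmp19, the most abundant of the 10 in control liver, and no increase of the gelatinase Mmp2 passed the test. Of the 10 genes, 8 had enough counts to be tested, and 6 of them were higher with edgeR's quasi-likelihood test at a Benjamini-Hochberg false discovery rate (FDR) of 0.05 or less. Over all 13719 tested genes, 25.4% were higher and 22% were lower at that threshold. No member was lower, and none was lower at an unadjusted p under 0.05 in edgeR or in DESeq2. With a second threshold of a log2 fold change of at least 2, 4 members were higher (Mmp12, Mmp13, Timp1 and Timp3), where the share over all genes was 6.59%. None was lower at -2 or less, against 1.11% of all genes. Mmp13 and Timp1, with at most 19 and 8 reads in a control, passed the filter on low counts through the treated libraries where they were high. With at least 10 counts required in every mouse, which drops both, 4 members and 2962 of all 12120 genes were higher. Past both thresholds there were then 2 members. In 5 members the lowest treated liver exceeded the highest control, as it did in 18.6% of all tested genes. The median log2 fold change was 1.80 over the 8 tested members and 0.01 over all tested genes. The plot of levels in each liver shows the separation of the groups gene by gene.

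**Figure D1:**
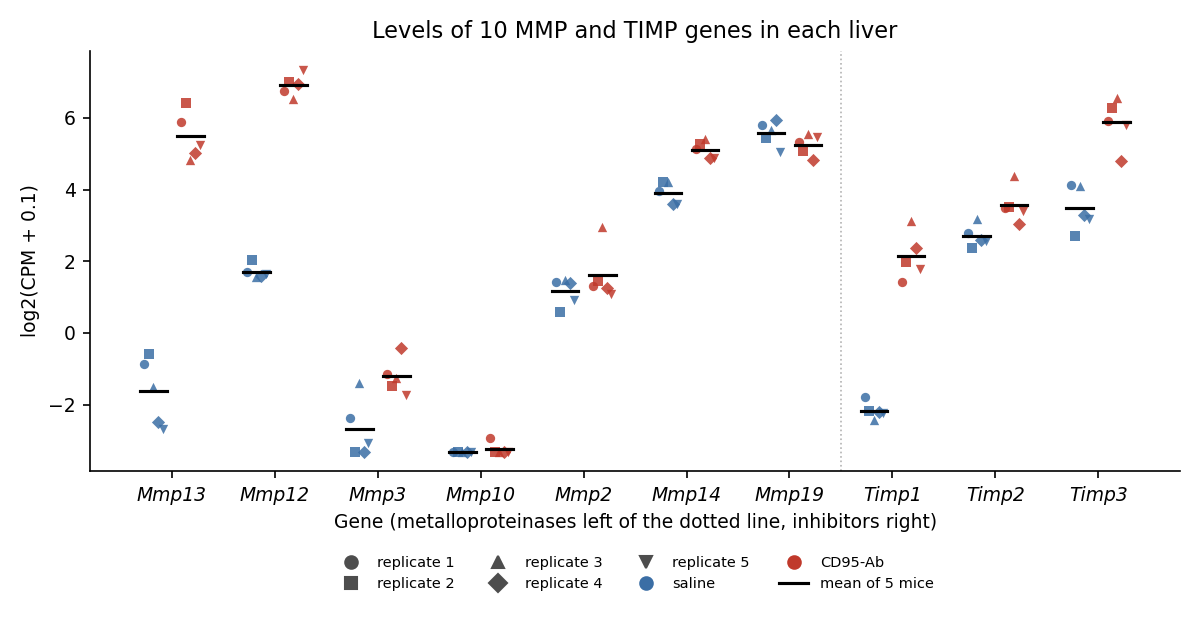
Level of each of the 10 genes as log2(CPM + 0.1), with 1 point per mouse (blue, saline; red, CD95-Ab; marker shape, replicate number) and a bar at the mean of 5 mice. The groups are separate for Mmp13, Mmp12, Mmp14, Timp1 and Timp3 and overlap for Mmp3, Mmp10, Mmp2, Mmp19 and Timp2.

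Mmp13 (ENSMUSG00000050578; GRCm38 chr9:7272514-7283331, plus strand, 10 exons in its longest transcript) encodes the main fibrillar collagenase of rodents. Its level was 0.447, 0.563, 0.254, 0.0770 and 0.0556 CPM in saline-injected mice 1 to 5 and 58.9, 85.6, 28.4, 32.5 and 38.0 CPM in the 5 mice injected with CD95-Ab. Every treated liver was therefore above every control, and 2 of the controls held only 2 and 3 reads of the gene, against 713 to 2689 reads in treated livers. The mean rose from 0.279 ± 0.224 to 48.7 ± 23.8 CPM (SD, n = 5 mice per group), a log2 fold change of 7.44 with a standard error of 0.54 (edgeR, FDR = 1.49e-06), which ranked 26th of all tested genes. With so few reads in controls, the fold is less precise than the level after CD95-Ab.

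Mmp12 (ENSMUSG00000049723; GRCm38 chr9:7344381-7369499, plus strand, 7 exons) encodes macrophage elastase, which degrades elastin and basement membrane proteins. It measured 3.15, 3.97, 2.85, 2.92 and 3.0 CPM in the controls, a narrow range, and 108, 127, 92.4, 124 and 162 CPM after CD95-Ab. All treated livers were above all controls, with no value between 3.97 and 92.4 CPM. The mean rose from 3.18 ± 0.457 to 123 ± 25.9 CPM (SD, n = 5), a 38.5-fold change (log2 fold change 5.27, standard error 0.19; edgeR, FDR = 4.30e-08). Of the 13719 tested genes, Mmp12 had the smallest p-value. By mean FPKM, a level scaled for transcript length, it moved from rank 10703 to rank 841 of all 38922 genes. Its exons share 157 bases with Mmp1b on the other strand, and Mmp1b was at 0 counts in every mouse.

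Many leukocyte markers were also higher after CD95-Ab, where 25.4% of all tested genes were higher. All 5 monocyte markers on the list rose (median log2 fold change 4.36), led by Chil3 (6.32) and Itgam (4.96), and their summed level was 25.8 to 47.0 CPM in controls and 227 to 443 CPM after CD95-Ab. Of 8 neutrophil markers, the 5 that could be tested rose, led by the calprotectin genes S100a8 (6.44) and S100a9 (6.16), with a median of 6.02 and a summed level of 4.19 to 10.6 against 102 to 410 CPM. Kupffer cell and macrophage markers rose in 3 of 8 cases, led by Marco (2.11) and Cd68 (1.79), and the Kupffer cell genes Clec4f (log2 fold change 0.10, FDR = 0.801) and Vsig4 (-0.02, FDR = 0.955) did not pass the test. Within the treated group, the third mouse had the highest neutrophil sum, 410 CPM, and the lowest Mmp12 and Mmp13. The fifth had the highest monocyte sum, 443 CPM, and the highest Mmp12, but only the third highest Mmp13. Ly6c2 and Ccr2 had means of 15.6 and 10.7 CPM in treated mice, a small part of the monocyte sum. In bulk tissue, more cells of a type and more RNA per cell cannot be told apart, nor can fewer cells and less RNA per cell. The part of the marker shifts in the MMP levels was not tested.

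The stromelysins Mmp3 and Mmp10, close paralogs with broad substrate ranges that can also activate other MMP zymogens, were barely detected. Mmp3 (ENSMUSG00000043613; chr9:7445822-7455975) had 4, 0, 10, 0 and 1 reads in saline-injected mice and 11, 8, 8, 16 and 9 reads after CD95-Ab. These corresponded to 0.0789 ± 0.120 and 0.354 ± 0.173 CPM (SD, n = 5), and the groups overlapped because the third control reached 0.282 CPM. The filter on low counts left the gene out of the fit, and a two-sided exact permutation test on log2(CPM + 0.1) gave p = 0.0238, where the smallest p that 5 mice against 5 allow is 0.00794. Fitted without that filter, Mmp3 had a log2 fold change of 2.04 (standard error 0.73; edgeR, FDR = 0.0465). Mmp10 (ENSMUSG00000047562, chr9:7502352-7510240) had a single read in 1 mouse injected with CD95-Ab and none in the other 9 mice. It was left out of the main fit. The fit without the filter gave it a log2 fold change of 1.47 (standard error 1.11, edgeR, FDR = 0.354), a value that rests on that read. A count of 0 allows up to 3 counts, which in these libraries was at most 0.121 CPM, and reads of such similar genes can be shared out between them by the counting step.

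Mmp13, Mmp12, Mmp3 and Mmp10 lie in the same cluster, a stretch of 0.427 Mb of chromosome 9 (GRCm38 chr9:7272514-7699585) with 9 protein-coding genes, all MMPs. The 10 loci annotated there, which include the polymorphic pseudogene Mmp1a, did not change alike. Mmp1a, Mmp1b and Mmp20 were at 0 counts in every mouse. Mmp8, the neutrophil collagenase, lies 286 kb from Mmp13 and rose from 0.135 ± 0.123 to 15.0 ± 8.13 CPM (log2 fold change 6.57, standard error 0.57; edgeR, FDR = 4.08e-06). Its neighbour Mmp27, 299 kb from Mmp13, was at 0.975 ± 0.454 and 1.84 ± 0.689 CPM, and the difference did not pass the threshold (edgeR, FDR = 0.0582). Mmp7, or matrilysin, an epithelial enzyme at the far end of the cluster, had at most 3 reads in a control and 7 in a treated liver. The upstream AP-1 letters printed above were thus present in genes with mean levels after CD95-Ab of 123 and 48.7 CPM as well as in Mmp3, at 0.354 CPM, and Mmp10, with 1 read in all. The plot of the cluster places these levels along the chromosome.

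**Figure D2:**
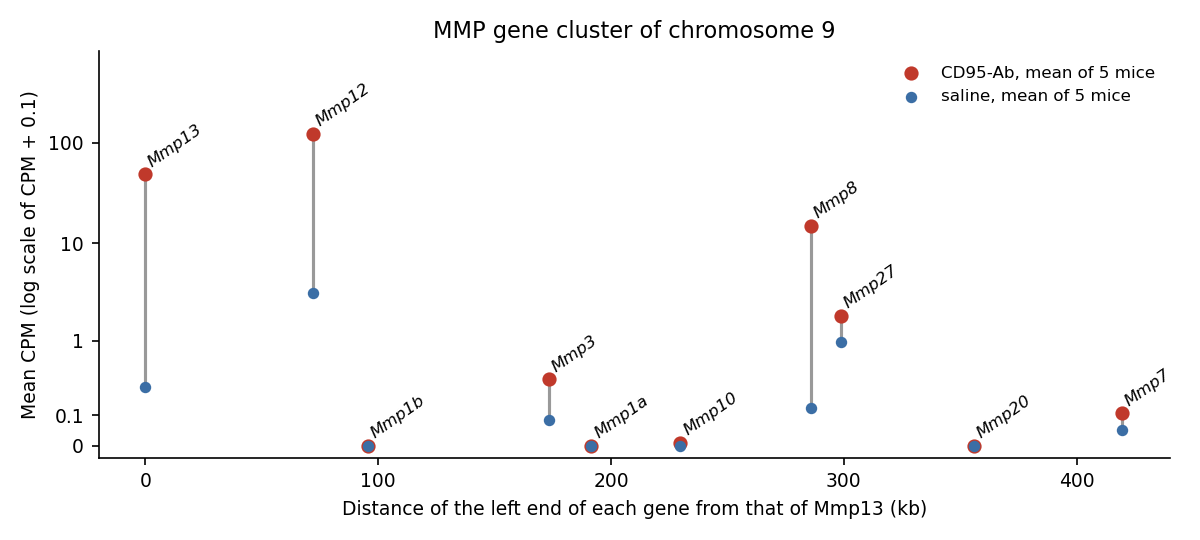
Mean CPM of 5 mice per group (blue, saline; red, CD95-Ab; vertical axis on a log scale of CPM + 0.1) for the 10 MMP loci of the chromosome 9 cluster, against the distance in kb of the left end of each gene from that of Mmp13. Mmp13, Mmp12 and Mmp8 reach 48.7, 123 and 15.0 CPM after CD95-Ab, and the genes between and beyond them stay below 2 CPM.

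Of the 3 member enzymes outside the cluster, Mmp14 alone passed the test. Mmp14 (ENSMUSG00000000957; GRCm38 chr14:54431612-54445364, plus strand, 10 exons) encodes a membrane-anchored collagenase that also activates the zymogen of Mmp2 together with Timp2. Its level was 15.4, 18.3, 18.3, 12.0 and 12.1 CPM in controls and 35.1, 38.6, 42.4, 29.1 and 29.4 CPM after CD95-Ab. The groups did not overlap, and the mean rose from 15.2 ± 3.15 to 34.9 ± 5.78 CPM (SD, n = 5), a 2.29-fold change (log2 fold change 1.20, standard error 0.16; edgeR, FDR = 1.20e-04).

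Mmp2 (ENSMUSG00000031740; GRCm38 chr8:92827291-92853420, plus strand, 13 exons), a gelatinase of stellate cells and fibroblasts, measured 2.59, 1.39, 2.70, 2.54 and 1.80 CPM in controls. After CD95-Ab it measured 2.37, 2.64, 7.72, 2.30 and 2.01 CPM. The third mouse stood far above the rest, and the other 4 lay within the control range. The log2 fold change of 0.62 (95% interval -0.12 to 1.36) did not pass the threshold (edgeR, FDR = 0.194), and without that mouse it was 0.08 (FDR = 0.789). In the same mouse the summed level of 8 stellate cell and fibroblast markers was 403 CPM, against 200 to 328 CPM in the other treated mice, and that of 4 mesothelial markers was 27.6 CPM, against 3.11 to 10.8 CPM. The part of these markers in the Mmp2 value was not tested.

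Mmp19 (ENSMUSG00000025355; GRCm38 chr10:128790910-128800824, plus strand, 9 exons) encodes a basement membrane protease that is found in many resting tissues. Levels of 55.6, 42.9, 50.5, 61.2 and 32.8 CPM in controls and of 39.8, 33.3, 46.4, 28.4 and 44.4 CPM after CD95-Ab overlapped widely. The mean was 48.6 ± 11.1 CPM in controls and 38.4 ± 7.54 CPM in treated mice (SD, n = 5), and the log2 fold change of -0.34 (95% interval -0.70 to 0.03) did not pass the threshold (edgeR, FDR = 0.154). Without the fifth control, the deepest library, it was -0.46 (FDR = 0.0349). At its 3′ end Mmp19 shares 789 bases, 22.3% of its exonic sequence, with Tmem198b on the other strand. No strand setting is given in the sources used here, and reads from the shared bases cannot be told apart. Tmem198b itself was at 7.40 ± 1.97 CPM in controls and 4.79 ± 1.36 CPM after CD95-Ab (log2 fold change -0.63, standard error 0.23; edgeR, FDR = 0.0360).

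All 3 inhibitors rose, by different factors. Timp1 (ENSMUSG00000001131; GRCm38 chrX:20870166-20874735, plus strand, 6 exons), the inducible inhibitor of the family, measured 0.188, 0.119, 0.0845, 0.115 and 0.111 CPM in controls, which amounted to 3 to 8 reads per mouse. After CD95-Ab it measured 2.60, 3.82, 8.64, 5.05 and 3.32 CPM, or 81 to 217 reads. The groups did not overlap, and the mean rose from 0.124 ± 0.0385 to 4.69 ± 2.38 CPM (SD, n = 5), a 36.4-fold change (log2 fold change 5.19, standard error 0.40; edgeR, FDR = 2.11e-06). The gene lies within Syn1, which is on the other strand and shares none of its exonic bases. Syn1 also rose, from 0.184 ± 0.10 to 0.874 ± 0.295 CPM (log2 fold change 2.20; edgeR, FDR = 8.74e-04).

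Timp2 (ENSMUSG00000017466; GRCm38 chr11:118301069-118355740, minus strand, 5 exons), the constitutive inhibitor that also bridges Mmp14 and the Mmp2 zymogen, measured 6.75, 5.10, 8.99, 5.93 and 5.77 CPM in controls. After CD95-Ab it measured 11.04, 11.4, 20.7, 8.11 and 10.5 CPM, so that 4 of 5 treated mice were above every control and the fourth mouse lay below the highest control. The mean rose from 6.51 ± 1.51 to 12.3 ± 4.83 CPM (SD, n = 5; log2 fold change 0.92, standard error 0.24; edgeR, FDR = 0.00841). Without the third treated mouse the log2 fold change was 0.66.

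Timp3 (ENSMUSG00000020044; GRCm38 chr10:86300372-86349506, plus strand, 5 exons), which is bound to the matrix and inhibits ADAM proteases as well as MMPs, had the highest mean FPKM of the inhibitors in both groups and the highest FPKM in 4 of 5 mice of each. It measured 17.4, 6.43, 17.1, 9.70 and 9.01 CPM in controls and 59.7, 78.0, 94.4, 27.9 and 55.4 CPM after CD95-Ab. No treated value fell within the control range, and the fourth mouse was the closest to it. The mean rose from 11.9 ± 5.01 to 63.1 ± 25.1 CPM (SD, n = 5), a 5.28-fold change (log2 fold change 2.40, standard error 0.35; edgeR, FDR = 1.84e-04). Timp3 lies within the span of Syn3, and 1733 bases (21.3%) of its exonic sequence overlap annotated exons of that gene on the other strand. Syn3 was at 3.63 ± 2.75 CPM in controls and 8.48 ± 5.52 CPM after CD95-Ab, and its difference did not pass the threshold (edgeR, FDR = 0.0694).

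**Figure D3:**
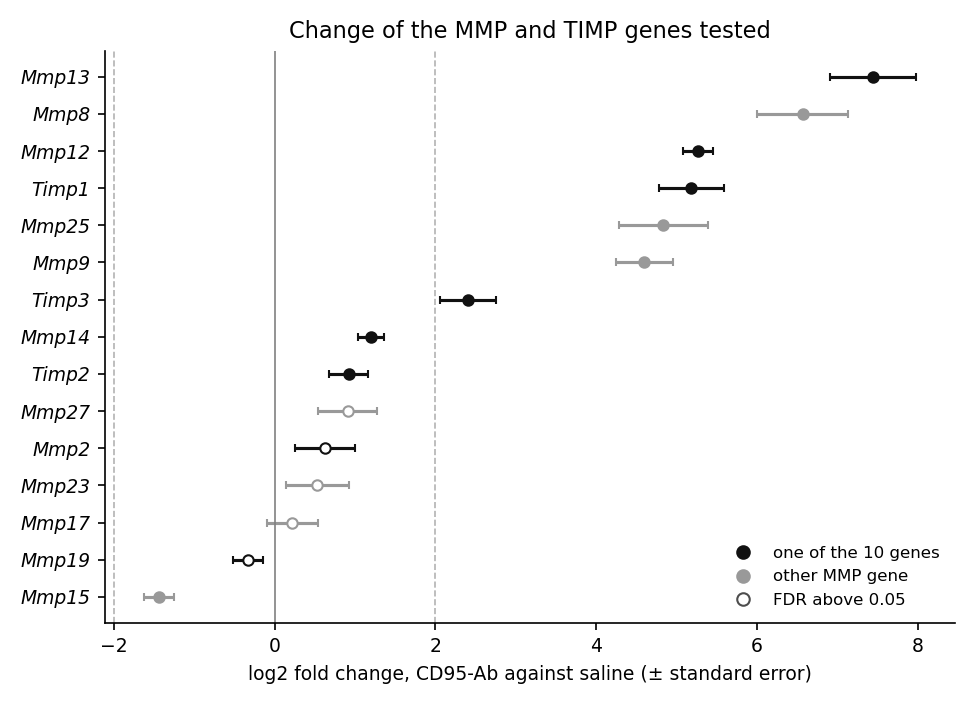
The log2 fold change of CD95-Ab against saline for the MMP and TIMP genes that could be tested, with standard errors from edgeR (black, the 8 tested members; grey, the 7 other tested family genes; open points, FDR above 0.05; dashed lines, log2 fold changes of -2 and 2). Mmp13, Mmp12, Timp1 and Timp3 are the members beyond the right dashed line, and Mmp15 is the only closed point below 0.

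Levels of different genes were compared on the FPKM scale, since longer transcripts collect more reads. In saline-injected livers the order of mean FPKM was Mmp19 (15.1 ± 4.08), Mmp14 (6.27 ± 1.78), Timp3 (2.67 ± 1.24), Timp2 (1.96 ± 0.451), Mmp12 (0.806 ± 0.198), Mmp2 (0.764 ± 0.223), Timp1 (0.162 ± 0.0597), Mmp13 (0.118 ± 0.10), Mmp3 (0.048) and Mmp10 (listed at 0), with SD over 5 mice. The ranges of neighbours in this order did not overlap for Mmp19 and Mmp14, for Timp2 and Mmp12, and for Mmp2 and Timp1, and they overlapped for all other neighbours. After CD95-Ab the order of mean FPKM became Mmp12 (66.2 ± 17.9), Mmp13 (18.6 ± 10.1), Timp3 (13.5 ± 5.29), Mmp14 (13.4 ± 2.61), Mmp19 (11.2 ± 2.67), Timp1 (5.48 ± 2.38), Timp2 (3.66 ± 1.51), Mmp2 (1.09 ± 0.694), Mmp3 (0.194 ± 0.0764) and Mmp10 (0.004). Only Mmp12 and Mmp13, Mmp2 and Mmp3, and Mmp3 and Mmp10 were neighbours with separate ranges in treated mice. Within single treated mice, Mmp19 was above Timp1 and Timp2 above Mmp2 in 5 of 5, Mmp13 above Timp3, Mmp14 above Mmp19 and Timp1 above Timp2 in 4 of 5, and Timp3 above Mmp14 in 3 of 5.

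The make-up of the MMP transcripts differed between the groups. The FPKM sum of the 7 MMP members was 27.6, 24.7, 25.0, 24.6 and 13.8 in controls and 127, 131, 82.6, 82.7 and 130.2 after CD95-Ab. Mmp19 led this sum in all 5 controls, with 65.0% ± 6.00 of it (SD, n = 5), and Mmp12 led it in all 5 treated mice, with 59.7% ± 7.27. The share of Mmp19 after CD95-Ab was 10.4% ± 2.81 and that of Mmp12 in controls 3.57% ± 0.787, while Mmp13 held 0.474% ± 0.378 in controls and 16.1% ± 6.09 in treated mice. Of the FPKM sum of the 3 inhibitors, Timp3 held 54.0% ± 6.29 in controls and 58.5% ± 10.6 after CD95-Ab, Timp2 went from 42.4% ± 5.65 to 16.0% ± 2.28, and Timp1 from 3.58% ± 1.19 to 25.6% ± 10.8.

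The inhibitor sum was 6.79, 3.40, 6.47, 3.92 and 3.37 FPKM in controls and 22.7, 24.9, 34.1, 12.3 and 19.2 FPKM after CD95-Ab. Both sums were higher in every treated mouse than in any control. Their ratio, MMP to TIMP, was 4.06, 7.27, 3.86, 6.27 and 4.08 in controls and 5.59, 5.25, 2.42, 6.72 and 6.78 in treated mice, with means of 5.11 ± 1.56 and 5.35 ± 1.77 (SD, n = 5). Over all 27 family genes the ratio was 6.64 ± 2.00 in controls and 5.98 ± 1.87 after CD95-Ab, so that the order of the means depended on the genes summed. The ratios of the members overlapped between the groups, and the lowest belonged to the third treated mouse. These sums follow from the values of the members given above and were not tested. RNA levels do not measure how much enzyme is active or bound by inhibitor.

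**Figure D4:**
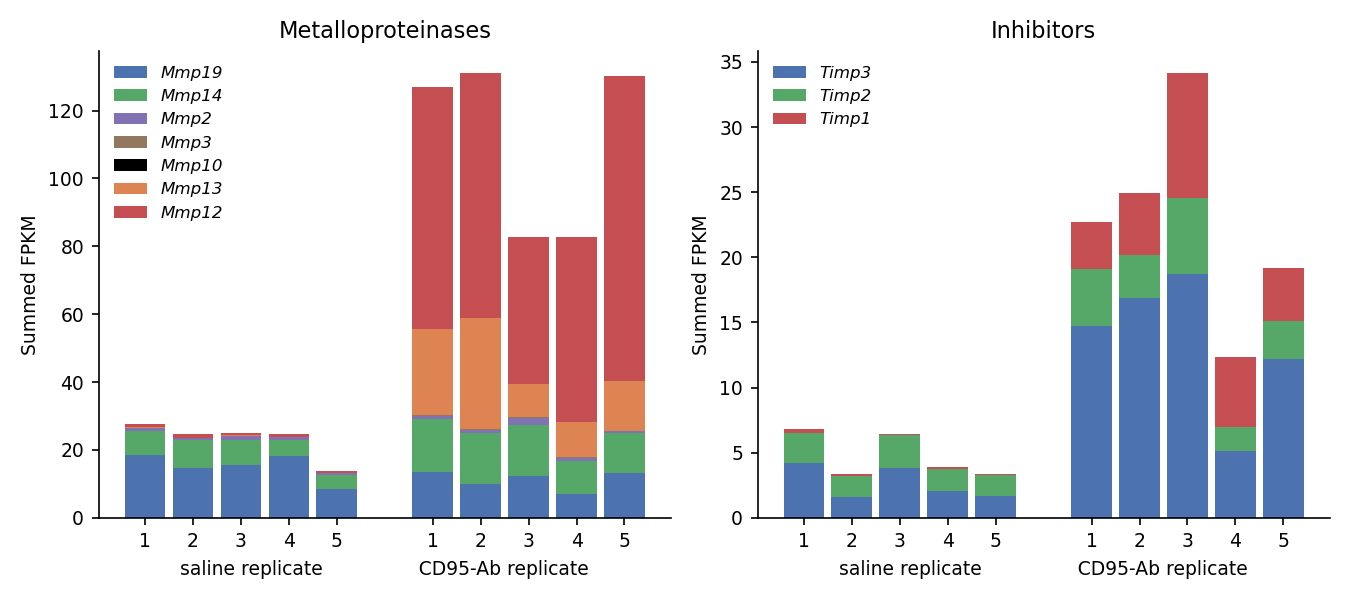
Stacked FPKM of the 7 MMP members (left) and the 3 TIMP members (right) in each of the 5 saline-injected and 5 CD95-Ab-injected mice, with both vertical axes starting at 0 and on different scales. Mmp19 fills most of each control bar, Mmp12 most of each treated bar, and the third treated mouse has the highest inhibitor sum, 34.1 FPKM, with an MMP sum of 82.6 FPKM.

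The treated mice did not rank alike for every member. By CPM, the third treated mouse was the highest of its group for 6 of the 8 tested members (Mmp2, Mmp14, Mmp19, Timp1, Timp2 and Timp3) and the lowest for the other 2, Mmp12 and Mmp13. By FPKM it was the highest for 4, since Mmp14 and Mmp19 were then highest in the first mouse, and the lowest for the same 2. The fourth mouse was the lowest by CPM for 4 members, namely Mmp14, Mmp19, Timp2 and Timp3, and by FPKM also for Mmp2. Within the treated group, the CPM ratio of the highest to the lowest mouse was 1.46 for Mmp14, 1.63 for Mmp19 and 1.75 for Mmp12, against 3.02 for Mmp13, 3.32 for Timp1, 3.39 for Timp3 and 3.83 for Mmp2. Beside the stellate cell and mesothelial sums given above, the third treated mouse had the highest summed neutrophil (410 CPM), endothelial (365 CPM), cholangiocyte (186 CPM) and hepatocyte (79015 CPM) markers of its group, while its monocyte sum of 240.5 CPM was near the lower end of the treated range. The part of these differences in its MMP and TIMP levels was not tested. With each mouse left out in turn, 6 members were higher in all 10 fits.

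Of the 17 other MMP and TIMP genes, 7 could be tested, of which 3 rose, 1 fell and 3 did not pass the threshold. The shares over all tested genes were 25.4% higher and 22% lower. Besides Mmp8, the increases were those of Mmp9, the gelatinase of neutrophils and macrophages, and of Mmp25, a membrane-anchored enzyme of leukocytes. Mmp9 was at 0.231 to 0.494 CPM in controls and 4.27 to 14.0 CPM after CD95-Ab (log2 fold change 4.60, standard error 0.36; edgeR, FDR = 2.11e-06). Mmp25 was at 0 to 0.0593 CPM and 0.546 to 1.20 CPM, respectively (log2 fold change 4.83, standard error 0.55; FDR = 3.27e-05). Each control held only 0 to 2 reads of Mmp25. Like Mmp8, with at most 18 reads in a control, Mmp25 passed the filter on low counts through the treated libraries. Both are among the 3 that rose.

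The gene that fell was Mmp15, which encodes a membrane-type enzyme related to Mmp14. It measured 27.4, 24.8, 27.4, 22.1 and 12.6 CPM in controls and 7.64, 8.12, 9.28, 9.04 and 8.06 CPM after CD95-Ab, with no overlap (log2 fold change -1.44, standard error 0.19; edgeR, FDR = 9.63e-05). Over all tested genes 14.7% had every treated mouse below every control. Its mean FPKM of 5.62 in controls was close to the 6.27 of Mmp14, whereas after CD95-Ab the values were 1.90 and 13.4. Of the 7 hepatocyte markers, 5 fell (median log2 fold change -0.78), led by Ass1 (-1.10) and Alb (-1.03), where 22% of all tested genes were lower. The part of the hepatocyte marker shift in the Mmp15 value was not tested. Mmp27, Mmp23 (log2 fold change 0.53, FDR = 0.290) and Mmp17 (0.22, FDR = 0.595) did not pass the threshold, and Timp4 had too few counts to be tested. Mmp24, also untested, had 0 or 1 reads in each control and 7 to 29 reads in each treated liver, and was singled out after its values were seen.

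Genes that act on MMPs, or on which MMPs act, were described from lists of fixed membership. Their counts stand beside 25.4% higher and 22% lower among all tested genes. In any list, a gene with few reads in controls could pass the filter on low counts through the treated libraries where it was high. Among 15 tested activators and other inhibitors, 6 rose and 1 fell, and the median log2 fold change was 0.27. The largest increases were those of A2m, a broad protease trap (0.238 ± 0.0964 to 16.2 ± 18.5 CPM; log2 fold change 6.13, FDR = 2.37e-04), and of Lcn2 (29.6 ± 21.2 to 1771 ± 678 CPM; 5.90, FDR = 8.58e-06). A2m measured 17.3, 11.9, 47.1, 2.18 and 2.35 CPM in the treated mice, and without the third of them its mean was 8.43 CPM and its log2 fold change 5.20 (FDR = 2.12e-04), below the 5.76 of Lcn2 and the 5.67 of Plaur, the urokinase receptor gene, in the same fit. Furin, the convertase that cleaves membrane-type MMP zymogens, fell from 195 ± 39.8 to 135.7 ± 28.1 CPM (log2 fold change -0.52; edgeR, FDR = 0.0293). Of 13 tested ADAM and ADAMTS proteases, relatives of MMPs that shed cell surface proteins or cut proteoglycans, 12 rose and none fell (median 1.43), and Adamts5 did not pass the threshold (0.01, FDR = 0.989). Among them were the aggrecanase Adamts4 (0.220 ± 0.173 to 30.9 ± 12.1 CPM; log2 fold change 7.19, FDR = 7.72e-07) and the leukocyte protease Adam8 (0.429 ± 0.179 to 12.0 ± 3.18 CPM; 4.74, FDR = 7.31e-07).

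Of 16 matrix substrates, 10 rose, 1 fell and 5 did not pass the threshold (median log2 fold change 1.15), where 25.4% of all tested genes were higher and 22% lower. The proteoglycan versican, Vcan, went from 0.192 ± 0.0428 to 11.7 ± 5.15 CPM (log2 fold change 5.90; edgeR, FDR = 6.07e-07), and Col4a1, a basement membrane collagen chain, from 25.1 ± 6.24 to 230.1 ± 69.9 CPM (3.20; FDR = 2.08e-06). Col18a1, which encodes the collagen that yields endostatin, fell from 775 ± 63.4 to 522.7 ± 69.4 CPM (-0.57; FDR = 0.00523). Of the 4 fibrillar collagen genes on the list, Col5a2 rose (4.26 ± 1.28 to 8.69 ± 4.61 CPM; 1.03, FDR = 0.0194), while Col1a1, Col1a2 and Col3a1 had log2 fold changes of 0.67, 0.71 and 0.70 that did not pass the threshold (FDR = 0.185, 0.0828 and 0.144).

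Of 15 factors and cytokines known to act on MMP or TIMP transcription, 14 rose and none fell (median log2 fold change 3.18). For this list and the marker lists below, the shares over all tested genes were 25.4% higher and 22% lower. The largest increases were those of Fosl1, an AP-1 subunit (0.0718 ± 0.0352 to 7.47 ± 3.61 CPM; log2 fold change 6.69, FDR = 1.35e-06), and of Osm, a cytokine that induces Timp1 (0.0296 ± 0.0215 to 3.27 ± 2.29 CPM; 6.55, FDR = 6.43e-06). Each control held only 1 to 4 reads of Fosl1 and 0 to 2 of Osm, so both folds are less precise than the levels after CD95-Ab. Like them, Tnf and Il6 (at most 6 and 11 reads in a control) passed the filter on low counts through the treated libraries. The count of 14 and the median include these genes. Fos itself did not pass the threshold (1.55, FDR = 0.134), and its controls ranged from 6.37 to 156 CPM. The plot of gene lists sets these counts beside those of the cell type markers, of which 6 of 8 stellate cell, 6 of 7 endothelial and 4 of 5 cholangiocyte markers also rose. The stellate cell markers did not move alike, since Ngfr (log2 fold change 2.07, FDR = 1.41e-04) and Rgs5 (1.58, FDR = 3.43e-04) rose, Lrat did not pass the threshold (-0.12, FDR = 0.772), and the transcription factor gene Hand2 fell from 3.16 ± 0.652 to 0.759 ± 0.497 CPM with no overlap between the groups (-2.06, standard error 0.43; edgeR, FDR = 0.00218). The largest endothelial increases were those of Lyve1 (3.41) and Cdh5 (2.51), and the largest cholangiocyte increases those of Sox9 (4.95) and Krt19 (1.99). The summed levels in controls and treated mice were 100.2 to 147 and 200.5 to 403 CPM for stellate cell markers, 54.5 to 121 and 185 to 365 CPM for endothelial markers, and 18.3 to 33.8 and 48.3 to 186 CPM for cholangiocyte markers. None of the 3 tested mesothelial markers was called (log2 fold changes of 0.90 to 1.48 in edgeR).

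**Figure D5:**
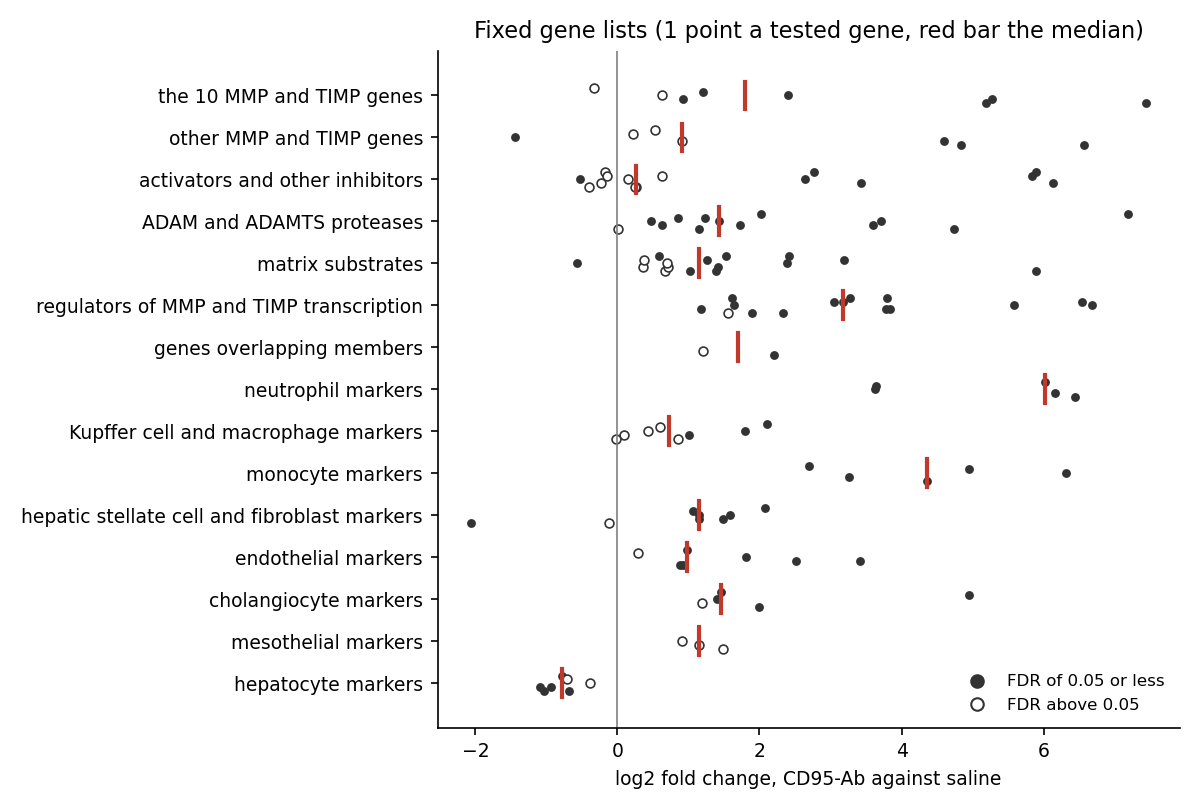
The log2 fold change of CD95-Ab against saline for every tested gene of each list (filled points, FDR of 0.05 or less; open points, FDR above 0.05; red bars, list medians). The medians run from -0.78 for hepatocyte markers to 6.02 for neutrophil markers, with 1.80 for the 8 tested members.

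The genes whose profile over the 10 mice was most like that of each member were found by the root mean square (RMS) difference in log2(CPM + 0.1), each gene being centred on its own saline mean, among 12138 genes. For Mmp12 these were Vcan (RMS 0.360), the myeloid receptor gene Clec5a (0.369) and the complement receptor gene C5ar1 (0.373). For Mmp13 they were the chemokine gene Ccl7 (0.431), Acod1, which encodes the itaconate-producing enzyme (0.684), and the chemokine gene Cxcl10 (0.884). The closest profiles to Timp1 were those of Cdr2 (0.255), Plscr1 (0.279) and Srgn (0.284), and those to Timp3 were of Prkx (0.308), the basement membrane gene Nid1 (0.314) and Crispld2 (0.344). Mmp2 was most like the matrix genes Smoc2 (0.253), Loxl1 (0.266) and Fbln5 (0.274). Mmp14 was most like App (0.146), Ccdc71l (0.153) and Ugcg (0.161), and Timp2 most like Ltbp3 (0.161), Jcad (0.161) and Gnai1 (0.171). For Mmp19, the closest were Sdha (0.139), Syt11 (0.143) and Opa1 (0.144). The distances are descriptions over 10 mice that share a treatment split.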

How the data were processed

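RNA-seq libraries of 10 mouse livers, 5 per treatment group, were assigned to saline or CD95-Ab by the sample labels. Libraries were prepared from 500 ng of RNA with TruSeq reagents and read as pairs of 100 bp. RSEM version 1.2.19 was used by the authors to assign reads to genes. The expected counts that the authors deposited were whole numbers and not normalized. RSEM shares out reads that match several genes, which can leave fractions. How the deposited values came to be whole is not given in the sources used here. The FPKM values that the authors deposited were scaled by RSEM for transcript length and library total, and served here to compare levels between genes. A human Gencode release is named in the paper, whereas the identifiers are those of mouse genes, and the mouse release and genome build are not given in the sources used here. Symbols and positions were taken from GENCODE mouse annotation of GRCm38, which held 37606 of the 38922 identifiers, and upstream sequences from RefSeq on GRCm38.p6.

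Genes were kept by filterByExpr with a minimum count of 10 (13719 genes), totals were adjusted by TMM, and CD95-Ab was set against saline in the quasi-likelihood framework of edgeR 4.0.16 under R 4.3.3, with Benjamini-Hochberg adjustment over all tested genes. Standard errors were derived from the F statistic. The 95% intervals used a normal quantile, which makes them narrower than a t quantile would. Single genes were compared with two-sided exact permutation tests on log2(CPM + 0.1) in Python 3.11.15 with pandas 2.3.3 and scipy 1.17.1. Floors of 3 counts cover counting error only. The code was tested on simulated data. The labels state biological replicates, 1 per mouse.

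The members and gene lists were chosen with earlier results of these data known, so that the counts over them are descriptions. All members are named, and of each other list at most the 2 largest increases and 2 largest decreases at an FDR of 0.05 or less. Every tested MMP or TIMP gene could be named. Genes outside this rule (Adamts5, Clec4f, Col1a1, Col1a2, Col3a1, Col5a2, Fos, Lrat, Plaur, Tmem198b and Vsig4) were picked after their values were seen. Alternatives were DESeq2 1.42.0, the likelihood ratio test, other filters and scalings, a larger prior count, other thresholds, another pseudocount, another length scale, a block on the replicate number and fits that omitted 1 mouse each. Protein sequences were not analysed here.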

Additional observations from a re-analysis of the deposited data

Results flagged for a closer look

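In 2 of the 19 sets of 5 mice with values for a member, 1 mouse stood apart by Dixon's criterion at the 95% level, which chance alone meets in about 1 of 20 sets. Mmp2 was at 7.72 CPM in CD95-Ab replicate 3, while the other 4 treated mice lay between 2.01 and 2.64 CPM. Mmp10 was at 0.0321 CPM in CD95-Ab replicate 1, which is a single read, and at 0 in the other 4 treated mice. A single read among zeros always meets the criterion, so the rate of 1 in 20 does not apply to Mmp10.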

How the results depend on the processing

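No log2 fold change of the 8 tested members changed sign under the other settings. The 6 members called higher were 6 in every fit with one mouse left out, with DESeq2, with the likelihood ratio test, with the other scalings and at an FDR of 0.01, 7 with no filter on low counts and 4 with at least 10 counts in every mouse, a filter that drops Mmp13 and Timp1. Members past both thresholds, 4 as reported, were 2 under that filter, 5 with no filter on low counts and 5 with a log2 fold change of 1 as the limit. The members called lower numbered 0 to 1 when one mouse was left out, the 1 being Mmp19 without saline replicate 5 (-0.46, FDR = 0.0349). With one mouse left out, genes called over the whole table were 3142 to 3581 higher and 2474 to 3396 lower. Scaling to library totals or upper quartiles lowered the share of higher among called genes from 53.6% to 47.0% (2878 higher, 3244 lower) and 46.8% (3163 and 3591), so that lower calls became the more frequent, while 6 members were called higher and 0 lower under both. Ordering levels by CPM per kb of the longest transcript in place of FPKM exchanged 2 neighbours in each group, Mmp12 and Mmp2 in controls and Mmp14 and Mmp19 after CD95-Ab. The labels number the mice alike in both groups. Deviations of same-numbered mice had a mean correlation of 0.0367, which was over 0.1 in 2 of 5 pairs, and 2 of 5 mice were closest to their own number. With only 5 pairs, these values cannot decide whether the numbers pair the mice. With the replicate block, 6 members were higher and 0 lower, and 3310 and 2677 genes of the whole table were called higher and lower. Depth limits Mmp3 and Mmp10, and the fold changes of Mmp13 and Timp1, whose control libraries held at most 19 and 8 reads.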
